A study of Mus musculus with 109 samples.

Results

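The comparison was of lung from mice of the strain labelled NZWLacJ that breathed cigarette smoke and lung from mice of the same strain that breathed air. It used 12 arrays, 5 from smoke-exposed and 7 from air-exposed NZWLacJ mice; the other 97 arrays of the series are of other mice or were left out. The genotype label of all 12 is WT, and no transgene, deletion or second treatment is named for them. The members were chosen by the strain and treatment labels, and 2 of the 14 arrays with the NZWLacJ label, smoke replicate 5 and air replicate 5, were left out because their strain-specific probes read as C57BL6. The sample titles of all 14 name C57, which conflicts with the strain label, and the strain label was used. Exposure was to mixed main-stream and side-stream smoke of 3R4F research cigarettes, on 5 days a week for 6 months. The C57BL6 wild-type mice used as a second strain, 28 smoke and 22 air arrays, fall under the same exposure protocol. The labels give no age, sex or animal number and do not state that each array is a separate mouse, so p-values here describe the spread between arrays, part of which may be technical.

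Cigarette smoke carries polycyclic aromatic hydrocarbons, which bind the aryl hydrocarbon receptor, AhR. With its partner ARNT the bound receptor switches on enzymes that oxidise these compounds, together with its own repressor, Ahrr. Oxidants and electrophiles in smoke act on a second sensor, KEAP1, which releases the transcription factor NRF2 to raise enzymes of quinone reduction and glutathione metabolism. The immediate early genes encode transcription factors and feedback regulators that respond within a short time to growth factors and stress. NZW mice are an inbred white strain of a lineage separate from C57BL6.

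Levels are log2 signals after background correction and quantile normalization, and a difference is smoke minus air on that scale with its standard error; 1 unit is a doubling. The offset of 16 added by the correction shrinks the differences of dim probes. An inbred-strain scale was set by the 50 genes that were lowest in the other NZWLacJ arrays relative to C57BL6. On it C57BL6 sits at 0 and NZWLacJ at 1, and the 12 arrays lay between 0.766 and 1.13. The lowest were air replicates 6 and 1, at 0.766 and 0.82, while the smoke arrays lay between 0.954 and 1.12. The part of this in the results was not tested. The 50 C57BL6 arrays lay between -0.0907 and 0.117, and the 2 left-out arrays at 0.0231 and 0.129. H2-Ea, a class II gene that C57BL6 mice lack a working copy of, read 9.09 to 12.25 on the 12 arrays, 4.74 on the left-out smoke array and 4.37 on the left-out air array; the highest of the 50 C57BL6 arrays read 8.03. Lung markers were detected on all 12 arrays, with Sftpc, a surfactant protein of type 2 cells, at 13.40 to 14.40 in smoke and 13.23 to 14.52 in air, and Scgb1a1, the club cell secretoglobin, at 15.49 to 15.58 in smoke and 15.38 to 15.58 in air. The share of probes detected was 45.1% to 50.5% on smoke arrays and 47.99% to 53.9% on air arrays, and its part in the results was not tested.

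Smoke raised the AhR targets Cyp1b1, Cyp1a1 and Ahrr and the quinone reductase Nqo1 on every NZWLacJ smoke array above every air array. With these included, 288 of 11346 genes passed the threshold of a limma adjusted p below 0.05, 2.54% of those tested. Of these, 171 were higher in smoke (1.51% of genes tested) and 117 lower (1.03%), so that 59.4% of the calls were higher; that share was 88.1% with median scaling and 73.7% on the values the authors deposited as normalized. The unadjusted p was below 0.05 for 1839 genes. Of the 288 genes, 31 had smoke and air values that did not overlap, against 53 of all 11346 genes (0.467%). The 288 were called on these same arrays, which by itself raises that share.

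The arrays are not evenly spread. The 6 NZWLacJ arrays with sample numbers 36 to 41 form a consecutive set of 4 smoke (replicates 1 to 4) and 2 air arrays (replicates 3 and 4), while 1 smoke array (replicate 6) and 5 air arrays lie elsewhere in the numbering. With exposure in the model, 2976 genes differed between that set and the other NZWLacJ arrays, 26.2% of those tested. Fam13a, the gene deleted in another group of the series but not in these mice, read 8.29 to 8.98 on the 6 consecutive arrays and 5.68 to 7.23 on the other 6. Of the 288 genes called for smoke, 174 were also called for the set in the same direction. No label says that the numbers mark a batch, so the set was entered as a term beside the groups and every main result is given with it.

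With the term, 36 genes were called, 0.317% of those tested: 29 higher (0.256%) and 7 lower (0.0617%) in smoke. Of them, 31 were among the 288, in the same direction. The unadjusted p was below 0.05 for 732 genes. In 150 of the 288 genes the difference with the term was less than 0.5 times that without it. Within the consecutive set alone 10 genes were called, and outside it, where smoke is a single array, 10 genes. Of the 288 genes, 69.4% had the same direction inside the set, outside it and over all 12 arrays, against 39.9% of all genes. The 288 were called on these same arrays, which by itself raises that share, so the 2 shares do not show that the calls repeat. Leaving out single arrays moved the counts. The 288 became 139, 67 and 116 without smoke replicates 1, 2 and 3, and 174, 137 and 158 without air replicates 1, 6 and 8. It became 577 and 623 without air replicates 3 and 4, and 1221 without smoke replicate 6. The 36 became 9 and 21 without air replicates 3 and 4, 17, 86 and 10 without smoke replicates 2, 4 and 6.

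**Figure D1:**
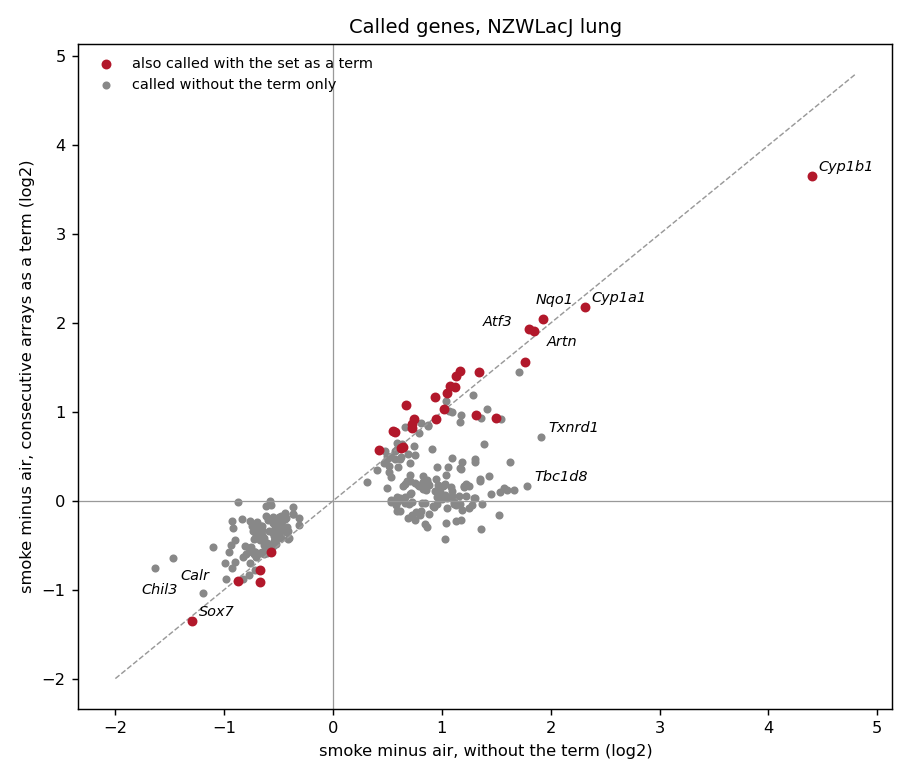
Smoke minus air (log2) of the 288 called NZWLacJ genes without the consecutive set as a term (x axis) and with it (y axis); red points were also called with the term and the dashed line marks equal values. Cyp1b1, Cyp1a1, Nqo1, Artn, Atf3 and Sox7 lie near the line, while a cloud of genes that includes Txnrd1 and Tbc1d8 drops towards 0 on the y axis.

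Of the 6 AhR targets measured, 4 rose. Cyp1b1, a cytochrome P450 that oxidises polycyclic hydrocarbons, had the largest difference among the genes called. It read 12.49, 13.06, 12.58, 11.34 and 10.48 on smoke replicates 1, 2, 3, 4 and 6, against a lowest of 6.53, a median of 7.55 and a highest of 8.74 on the 7 air arrays. All 5 smoke arrays lay above all air arrays, with replicate 6, from outside the consecutive set, the lowest of them. The means were 11.99 ± 1.05 (SD, n = 5) in smoke and 7.59 ± 0.82 (SD, n = 7) in air, a difference of 4.40 ± 0.55 or 21.1-fold (limma adjusted p = 1.1e-08). With the consecutive set as a term it was 3.65 (adjusted p = 0.000368), and it was 3.92 within the set and 3.23 outside it.

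Cyp1a1, the P450 most tightly tied to AhR, was not detected on any air array. It read 6.40, 7.33, 6.46, 7.08 and 6.13 on the smoke arrays, all 5 detected, against a lowest of 4.32, a median of 4.36 and a highest of 4.46 in air. The air arrays lay within a narrow band at background and no smoke array came near it. Smoke was at least 2.46-fold higher, a bound that sets the smoke mean against the higher, per air array, of the dimmest detected probe and the Cyp1a1 signal. The measured difference was 2.31 ± 0.40 (limma adjusted p = 7.96e-05) and 2.18 with the term (adjusted p = 0.00697). Without air replicate 3, air replicate 4 or smoke replicate 6 the call with the term was lost, and no single array ended the call without the term.

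Ahrr, the repressor that AhR induces against itself, was also below detection in air. It read 6.74, 7.33, 6.93, 6.83 and 6.06 in smoke, against a lowest of 4.62, a median of 4.99 and a highest of 5.30 in air. All smoke values were above the air values, with replicate 6 the lowest. The bound was at least 2.63-fold, the difference 1.77 ± 0.25 (limma adjusted p = 7.18e-07) and 1.56 with the term (adjusted p = 0.00119), a call that was lost only without air replicate 3 among the 12 arrays left out in turn.

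Nqo1, a quinone reductase that both AhR and NRF2 control, read 7.54, 7.76, 7.83, 8.19 and 7.55 in smoke, against a lowest of 5.03, a median of 5.89 and a highest of 6.21 in air. The smoke arrays were close to each other and all above the air arrays, of which replicate 4 was low. The difference was 1.93 ± 0.40 (limma adjusted p = 0.00155), 2.05 with the term (adjusted p = 0.0156), 2.36 within the set and 1.56 outside it. The call with the term was lost without air replicate 3, air replicate 4 or smoke replicate 6. A fit on the 12 NZWLacJ arrays alone, with their own spread, called 5 genes: Cyp1a1, Nqo1, Cyp1b1, Ahrr and Cirbp (the last was chosen after its value was seen). With the term as well it called the first 4.

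Of 8 AhR targets listed, 6 were measured, and the other 2, Cyp1a2 and Tiparp, were not among the genes tested. All 6 had positive differences and 4 passed the threshold, with the term too, against 1.51% of all genes. Their median difference was 1.85, and 1.81 with the term, where the median of all genes was -0.03 without it. Cyp1a1 and Ahrr were not detected on any NZWLacJ air array and could be kept by the filter through other arrays. They could hardly come out lower in smoke, so their direction adds nothing to these counts. Aldh3a1, an aldehyde dehydrogenase, differed by 1.35 ± 0.42 (limma adjusted p = 0.0592), and Ugt1a6a, a glucuronosyltransferase, by 0.52 ± 0.34 (adjusted p = 0.459); neither passed. All 6 passed in C57BL6 lung. The NZWLacJ and C57BL6 smoke effects were 4.40 and 2.96 for Cyp1b1, 1.77 and 0.86 for Ahrr, and the difference between strains did not pass for any of the 6 (adjusted p = 0.225 for Cyp1b1 and 0.0671 for Ahrr). The interval around those differences is wide: 1.44 ± 0.61 (SE) for Cyp1b1 and 0.90 ± 0.28 for Ahrr.

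The promoters of the 3 targets that were called and are controlled chiefly through AhR are shown, from 250 bases before to 50 after the annotated start in RefSeq's GRCm38.p6, to let the receptor's binding core be seen. Capitals mark GCGTG, the core bound by AhR with ARNT, searched on both strands, so that it also reads CACGC; the window holds the proximal promoter and the start of the first exon only.
Cyp1a1, chr9:57697363-57697662, plus strand: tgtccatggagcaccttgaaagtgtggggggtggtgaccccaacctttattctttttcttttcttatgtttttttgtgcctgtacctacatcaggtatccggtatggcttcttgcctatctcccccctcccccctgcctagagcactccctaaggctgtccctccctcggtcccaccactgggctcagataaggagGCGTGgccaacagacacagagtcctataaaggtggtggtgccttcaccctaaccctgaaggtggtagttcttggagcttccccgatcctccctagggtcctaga
Cyp1b1, chr17:79715012-79715311, minus strand: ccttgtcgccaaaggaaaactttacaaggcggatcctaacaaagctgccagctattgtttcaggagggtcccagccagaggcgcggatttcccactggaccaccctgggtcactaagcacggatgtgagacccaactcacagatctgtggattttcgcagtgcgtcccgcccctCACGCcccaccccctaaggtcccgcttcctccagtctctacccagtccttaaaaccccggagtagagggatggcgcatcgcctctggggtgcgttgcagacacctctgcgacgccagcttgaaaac
Ahrr, chr13:74292282-74292581, minus strand: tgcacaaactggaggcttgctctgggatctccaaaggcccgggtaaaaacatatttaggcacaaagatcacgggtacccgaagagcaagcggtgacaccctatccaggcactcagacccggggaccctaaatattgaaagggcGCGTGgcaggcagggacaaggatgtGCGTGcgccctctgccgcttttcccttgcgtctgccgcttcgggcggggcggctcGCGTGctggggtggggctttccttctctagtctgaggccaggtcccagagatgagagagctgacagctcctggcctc
The core occurs 1 time in Cyp1a1, 1 time in Cyp1b1 and 3 times in Ahrr, and not in this window of Nqo1, which also lacks TGACNNNGC, the antioxidant response element core. Of 32851 promoter windows in the same table, 32.4% hold GCGTG and 12.4% hold TGACNNNGC, so a match is common and describes the letters only.

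**Figure D2:**
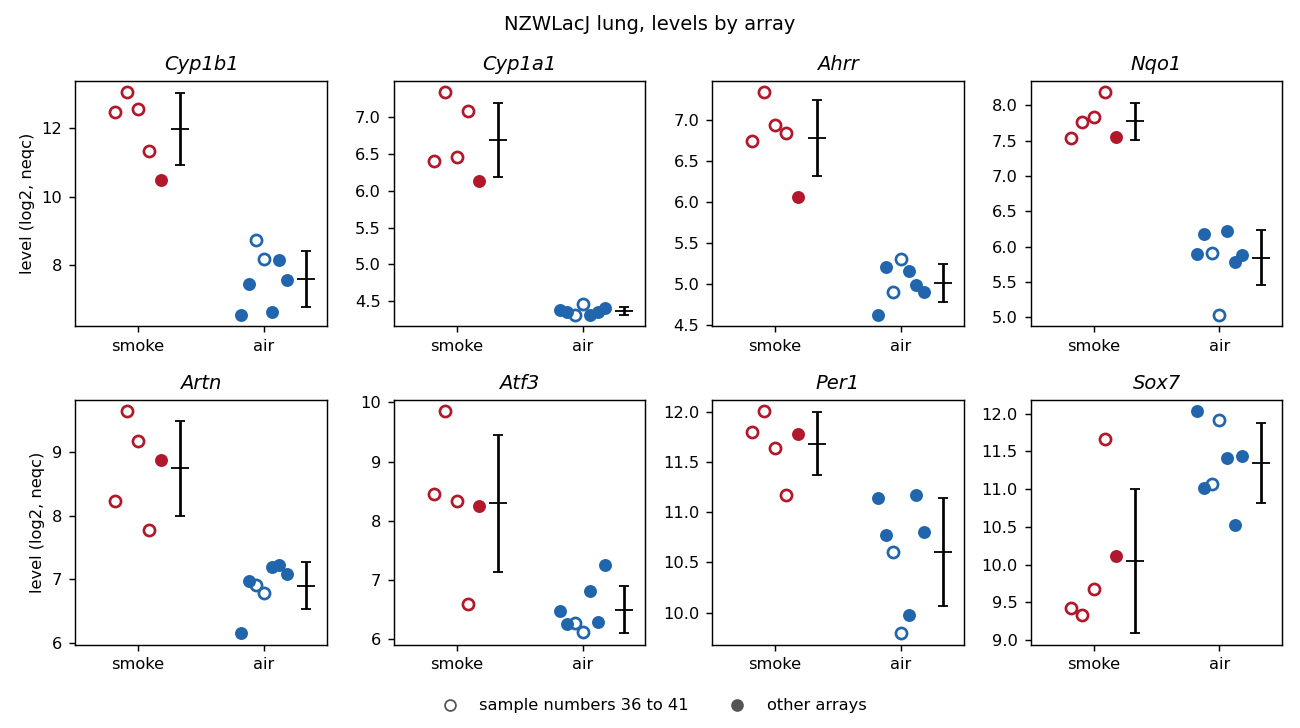
Level (log2 signal) of 8 genes on each NZWLacJ array, smoke left and air right; open circles are the arrays with sample numbers 36 to 41, filled circles the other arrays, and the black marks the mean with SD (n = 5 smoke, n = 7 air). Smoke and air do not overlap for Cyp1b1, Cyp1a1, Ahrr, Nqo1 and Artn; for Atf3 and Sox7 smoke replicate 4 lies among the air arrays.

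Some of the NRF2 and glutathione genes passed. Of 34 listed genes 28 were measured, 4 passed, all higher (Nqo1, Txnrd1, Cbr1 and Cbr3), and 24 did not, against 1.51% of all genes higher. Of the 28, 23 had positive differences, and the unadjusted limma p was below 0.05 for 12 without the term and 10 with it. Their median was 0.53 without the term and 0.38 with it, and Nqo1 alone passed with it. The median was 0.66 within the consecutive set and 0.09 outside it. In C57BL6 lung, with more arrays, 15 of the 28 passed and the median was 0.44.

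Cbr1 and Cbr3 are neighbouring carbonyl reductases that reduce quinones and aldehydes. Cbr3 read 11.45, 11.60, 11.52, 10.92 and 10.67 in smoke, against a lowest of 9.76, a median of 10.19 and a highest of 10.65 in air, with the lowest smoke array, replicate 6, only just above the highest air array. Its difference was 1.06 ± 0.24 (limma adjusted p = 0.00384) and 1.01 with the term (adjusted p = 0.0989). Cbr1 differed by 0.87 ± 0.19 (limma adjusted p = 0.00265), all 5 smoke arrays above all air arrays, and by 0.86 with the term (adjusted p = 0.0598). Both kept their size with the term but not their call. Within the consecutive set Cbr1 differed by 1.27, and by 0.20 outside it.

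Txnrd1, the cytosolic thioredoxin reductase, differed between the consecutive set and the other arrays. It read 8.22, 8.79, 8.48, 8.40 and 5.95 in smoke, against a lowest of 4.72, a median of 5.75 and a highest of 7.70 in air. The 4 consecutive smoke arrays were above every air array, smoke replicate 6 was near the air median, and the 2 consecutive air arrays were the highest in air. The difference of 1.91 ± 0.33 (limma adjusted p = 6.91e-05) was 0.72 with the term (adjusted p = 0.602). Smoke was higher by 0.84 within the set and by 0.52 outside it. In C57BL6 the difference was 0.57 (limma adjusted p = 0.0537). Heme oxygenase Hmox1 differed by 0.74 (adjusted p = 0.358) and the glutamate-cysteine ligase subunit Gclc by 1.60 (adjusted p = 0.0644), neither past the threshold.

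Outside these pathways Artn rose. It encodes artemin, a neurotrophic ligand of the GDNF family, and read 8.24, 9.66, 9.18, 7.78 and 8.89 in smoke, against a lowest of 6.15, a median of 6.97 and a highest of 7.23 in air, with no overlap and with replicate 6 in the middle of the smoke arrays. The difference was 1.85 ± 0.28 (limma adjusted p = 4.49e-06), 1.91 with the term (adjusted p = 0.000368), 1.87 within the set and 1.96 outside it. Both calls held in all 12 fits with an array left out. The smoke effect in C57BL6 was 1.24 (adjusted p = 1.59e-11), and the strains' effects did not differ past the threshold (adjusted p = 0.349). Of its other 2 kept probes, 1 differed by 1.85 and 1 by 0.66.

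Of 18 measured xenobiotic enzymes of lung 2 passed, against 1.51% of all genes higher. Both were carboxylesterases, Ces1f and Ces1g, which hydrolyse esters and belong to a family of close copies whose probes may share signal. Ces1f read 9.48, 9.70, 9.77, 8.67 and 8.91 in smoke, against a lowest of 7.05, a median of 8.14 and a highest of 8.48 in air, without overlap. It differed by 1.29 ± 0.26 (limma adjusted p = 0.00108), by 1.19 with the term (adjusted p = 0.0522) and by 1.26 in C57BL6. Ces1g was not detected in air; it was at least 2.07-fold higher in smoke, with a difference of 1.32 ± 0.20 (limma adjusted p = 3.99e-06). With the term Ces1g differed by 0.97 (adjusted p = 0.0153), a call lost without air replicate 3, air replicate 4, smoke replicate 2 or smoke replicate 3. The median of the list was -0.06, close to that of all genes.

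Among immediate early genes and their feedback regulators, Atf3, Egr1, Errfi1 and Ccn1 rose. The list had 37 genes, 29 of them measured; 4 passed, all higher, and 25 did not, against 1.51% of all genes higher. The median was 0.31 in NZWLacJ, with 25 of 29 positive, and -0.10 in C57BL6. With the term Atf3 and Errfi1 still passed, and the median was 0.32. These transcripts change within a short time, and no label gives the time between the last exposure and the tissue collection.

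Atf3 encodes a stress-induced repressor of the ATF and CREB family. It read 8.45, 9.86, 8.34, 6.60 and 8.24 in smoke, against a lowest of 6.12, a median of 6.28 and a highest of 7.24 in air. Smoke replicate 2 was the highest, 4 smoke arrays were above every air array, and replicate 4 lay within the air range. The difference was 1.80 ± 0.34 (limma adjusted p = 0.000362), 1.93 with the term (adjusted p = 0.00398), 2.12 within the set and 1.62 outside it. In C57BL6 the difference was -0.15 (adjusted p = 0.884). The smoke effects of the strains differed by 1.95 ± 0.38 (limma adjusted p = 0.0012), and by 2.07 with the term (adjusted p = 0.00866). The call of the NZWLacJ effect held in all 12 fits with an array left out, but with the term it was lost without air replicate 3, air replicate 4, smoke replicate 2 or smoke replicate 6.

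Errfi1 encodes MIG6, an inhibitor of the EGF receptor that the receptor's own signalling induces. It read 12.63, 12.94, 12.60, 12.25 and 13.01 in smoke, against a lowest of 11.34, a median of 11.61 and a highest of 12.63 in air. Air replicate 1 lay among the smoke arrays, the other 6 air arrays were below all of them, and the groups overlap through that array alone. The difference was 0.94 ± 0.24 (limma adjusted p = 0.0139) and 1.17 with the term (adjusted p = 0.0208); without smoke replicate 2 the adjusted p was 0.0851, and the call with the term was lost without air replicate 3 or 4 or smoke replicate 2 or 6. In C57BL6 it differed by -0.36 (adjusted p = 0.148), and the strains' effects differed by 1.30 ± 0.27 (limma adjusted p = 0.00233; 0.00271 with the term). Of 7 measured EGF receptor ligands and regulators it was the 1 that passed, against 1.51% of all genes higher.

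One of the 2 annotated Errfi1 promoters holds a full cyclic AMP response element, TGACGTCA, the palindrome bound by CREB and ATF factors; it is marked in capitals below, and 1.79% of promoter windows hold it. The window also holds GCGTG 3 times, left in lower case.
Errfi1, chr4:150854820-150855119, plus strand: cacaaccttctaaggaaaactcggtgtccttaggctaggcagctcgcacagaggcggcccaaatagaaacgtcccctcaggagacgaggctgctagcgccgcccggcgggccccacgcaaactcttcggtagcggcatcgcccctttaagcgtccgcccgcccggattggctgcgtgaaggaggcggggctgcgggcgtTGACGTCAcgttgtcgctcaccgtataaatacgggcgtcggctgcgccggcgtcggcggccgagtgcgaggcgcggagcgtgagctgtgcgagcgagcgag
The windows of Atf3 and Ccn1 do not hold TGACGTCA, while they hold GCGTG 2 times in Atf3 and 1 time in Ccn1. None of the values here bears on which factor occupies the site.

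Egr1, a zinc finger factor of the early growth response, read 12.21, 12.99, 13, 10.93 and 12.15 in smoke, against a lowest of 9.30, a median of 10.17 and a highest of 11.94 in air. Smoke replicate 4 lay within the air range and air replicate 8 was just below the other 4 smoke arrays. The difference was 1.71 ± 0.41 (limma adjusted p = 0.007), and 1.45 with the term (adjusted p = 0.293); the call was lost without smoke replicate 2 (adjusted p = 0.0745) or smoke replicate 3 (adjusted p = 0.06). Ccn1, a matricellular protein induced by growth factors, differed by 1.54 ± 0.33 (limma adjusted p = 0.00187) and by 0.92 with the term (adjusted p = 0.488). Fos differed by 1.54 ± 0.49 (adjusted p = 0.0706) and the phosphatase Dusp1 by 0.95 ± 0.29 (adjusted p = 0.0592), neither past the threshold.

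Ptgs2, the inducible cyclooxygenase COX-2, was not detected on any air array. It read 6.79, 7.19, 5.75, 6.88 and 4.44 in smoke, against a lowest of 4.49, a median of 4.58 and a highest of 5.27 in air. The 4 consecutive smoke arrays were above all air arrays, and replicate 6 was below them, undetected. The bound was at least 1.77-fold and the difference 1.49 ± 0.19 (limma adjusted p = 1.1e-08), 0.93 with the term (adjusted p = 0.00331), 1.60 within the set and -0.14 outside it. The call with the term was lost without air replicate 3 or 4. In C57BL6 the difference was 0.23, and the strains' effects differed by 1.27 ± 0.21 (limma adjusted p = 9.25e-05), a call lost with the term (adjusted p = 0.164).

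Per1, a clock repressor that glucocorticoids and cyclic AMP also induce, was among the genes with the smallest adjusted p with the term. It read 11.80, 12.01, 11.64, 11.17 and 11.78 in smoke, against a lowest of 9.79, a median of 10.77 and a highest of 11.17 in air, with smoke replicate 4 level with the highest air array and the other smoke arrays above it. The difference was 1.07 ± 0.21 (limma adjusted p = 0.000612), 1.29 with the term (adjusted p = 0.00134), 1.46 within the set and 1.01 outside it; the call with the term was lost without air replicate 4. C57BL6 lung had -0.28 (adjusted p = 0.288), and the effects differed by 1.35 ± 0.24 (limma adjusted p = 0.000211; 0.000465 with the term). Of 14 measured clock genes and of 12 glucocorticoid-responsive genes Per1 was the 1 that passed in each list, against 1.51% of all genes higher. The list medians were 0.29 and 0.37. Dbp, a clock output gene, differed by 0.66 ± 0.50 and the glucocorticoid target Tsc22d3 by 0.55 ± 0.20 (adjusted p = 0.547 and 0.13). No label gives the time of day of collection. Cirbp, the cold-inducible RNA-binding protein, differed by 1.34 ± 0.26 (limma adjusted p = 0.000605) and by 1.45 with the term (adjusted p = 0.00518); the second call was lost without air replicate 3 or smoke replicate 6.

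Among the other genes called with the term were several whose highest array was smoke replicate 6. Acr, acrosin, a protease of sperm, read 5.86, 7.32, 6.75, 5.54 and 7.64 in smoke, against a lowest of 5.26, a median of 5.39 and a highest of 5.92 in air, with replicates 2, 3 and 6 above all air arrays. It differed by 1.17 ± 0.25 (limma adjusted p = 0.00215) and by 1.46 with the term (adjusted p = 0.00221). Slc22a12, the urate transporter of kidney, was not detected in air and was at least 1.02-fold higher in smoke, with 3 of 5 smoke arrays detected and a measured difference of 0.74 ± 0.15 (limma adjusted p = 0.00116). Cplx1, a complexin of synaptic release, and Insyn2b, an inhibitory synapse factor, differed by 0.56 ± 0.12 and 0.62 ± 0.10 (limma adjusted p = 0.003 and 2.29e-05). Without smoke replicate 2 Cplx1 differed by 0.48 (adjusted p = 0.0539) and was not called. For these 4 genes the differences outside the set were 2.13, 1.24, 1.28 and 1.24, against 1.04, 0.72, 0.47 and 0.20 within it. Without smoke replicate 6 none of the 4 was called in limma with the term, and Insyn2b was not called without air replicate 3 either. Mpp3, a membrane scaffold protein, differed by 1.12 ± 0.27 (limma adjusted p = 0.007) and by 1.28 with the term (adjusted p = 0.0267); the first call was lost without smoke replicate 2, and the second without air replicate 3 or 4 or smoke replicate 1, 2 or 6.

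The genes that fell with and without the term were led by Sox7, a transcription factor of endothelium. It read 9.43, 9.33, 9.68, 11.67 and 10.11 in smoke, against a lowest of 10.52, a median of 11.41 and a highest of 12.04 in air. Smoke replicates 1, 2, 3 and 6 were below every air array, and replicate 4 lay high in the air range. The difference was -1.30 ± 0.28 (limma adjusted p = 0.00215), -1.35 with the term (adjusted p = 0.0264), -1.47 within the set and -1.17 outside it. A second probe differed by -1.12. The strains' effects differed by -1.54 ± 0.31 (limma adjusted p = 0.00199; 0.0214 with the term), with an effect of 0.24 in C57BL6. The call with the term was lost in 6 of 12 fits with an array left out: without air replicate 3 or 4, or smoke replicate 1, 2, 3 or 6.

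Among cell type markers, Sox7 was the 1 gene that passed of 23 measured endothelial markers, against 1.03% of all genes lower, and their median was -0.15. Their summed signal was 89670 to 112100 on smoke arrays and 90980 to 124400 on air arrays, and all were detected on at least 1 array. In whole lung, fewer cells of a type and less RNA per cell cannot be told apart. Hhex, a homeobox factor of endothelium and blood progenitors, read 8.19, 7.55, 8.17, 9.52 and 8.11 in smoke, against a lowest of 8.30, a median of 9.01 and a highest of 9.63 in air, again with replicate 4 in the air range. It differed by -0.67 ± 0.18 (limma adjusted p = 0.0245) and by -0.92 with the term (adjusted p = 0.0145), and the strains' effects by -0.95 ± 0.20 (adjusted p = 0.00386; 0.00269 with the term). The Hhex call was lost without air replicate 1 or 4, or smoke replicate 1, 2 or 3, and with the term without air replicate 3 or 4 or smoke replicate 2 or 6.

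Of 19 measured endoplasmic reticulum (ER) stress and ATF4 targets, 3 passed, all lower (Pdia4, Calr and Creld2), and 16 did not, against 1.03% of all genes lower; with the term none of the 19 passed in limma (unadjusted p below 0.05 for 7). The list median was 0.00, with 10 positive and 9 negative, and -0.21 with the term. Pdia4, a protein disulfide isomerase, read 9.42, 8.94, 9.30, 8.98 and 9.53 in smoke, against a lowest of 9.58, a median of 10.00 and a highest of 10.58 in air, without overlap. It differed by -0.83 ± 0.16 (limma adjusted p = 0.000605) and by -0.64 with the term (adjusted p = 0.151). Pdia3, another isomerase that folds glycoproteins and not on that list, fell by 0.57 (limma adjusted p = 0.000808) and by 0.58 with the term (adjusted p = 0.0165); its values were 11.95, 11.69, 11.91, 12.46 and 12.02 in smoke, against a lowest of 12.37, a median of 12.53 and a highest of 12.79 in air. The call with the term was lost without air replicate 3 or smoke replicate 2 or 6. The smoke arrays other than replicate 4 were below all air arrays. Creld2, secreted on ER stress, differed by -0.72 ± 0.17 (adjusted p = 0.00779), and -0.78 with the term (adjusted p = 0.0538); its first call was lost without smoke replicate 2 (adjusted p = 0.0745).

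Calr, the calcium-binding lectin calreticulin, differed by -1.47 ± 0.40 (limma adjusted p = 0.0243) but by -0.64 with the term (adjusted p = 0.891): the 2 consecutive air arrays were the lowest in air, and the call was lost without any 1 of air replicates 1, 2, 6 and 8 and smoke replicates 1, 2 and 3. Stip1, a co-chaperone that links HSP70 to HSP90, differed by -0.93 ± 0.21 (limma adjusted p = 0.00267), with no overlap between smoke and air, and by -0.76 with the term (adjusted p = 0.234). Of 14 measured heat shock chaperones none passed in limma without the term or with it (medians -0.12 and -0.65). The unadjusted p was below 0.05 for 4 of them without the term and 5 with it. The largest differences were -0.93 ± 0.33 for Hsph1 and -0.85 ± 0.31 for Hspb1 (adjusted p = 0.12 and 0.129).

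Replication-dependent histones have nearly identical copies, so that a probe may read several. Of the 9 measured histones on the list 3 fell, against 1.03% of all genes lower: H2bc6 by 0.90, H2bc7 by 0.80 and H3c4 by 0.55 (limma adjusted p = 0.0222, 0.00688 and 0.0214). The list is not complete. Further H2bc and H3c histones outside it were also called lower in limma, by 0.64 to 0.78, and those were not called with the term. H3c4 read 6.65, 5.98, 6.55, 6.88 and 6.72 in smoke, against a lowest of 6.92, a median of 7.08 and a highest of 7.49 in air, with all smoke arrays below. With the term the differences were -0.69, -0.60 and -0.51 for H2bc6, H2bc7 and H3c4, none past the threshold, and without smoke replicate 2 or 3 none was called; H2bc6 was lost in 6 of 12 fits with an array left out. None of 15 measured cell cycle genes passed in limma (unadjusted p below 0.05 for 2), and their median was -0.24 without the term and -0.11 with it.

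Mrpl15, a protein of the mitochondrial ribosome, differed by -0.67 ± 0.17 (limma adjusted p = 0.00975) and by -0.78 with the term (adjusted p = 0.0355), and Tmie, a component of the hair cell transduction channel, by -0.88 ± 0.19 (adjusted p = 0.00265) and -0.90 (adjusted p = 0.0355). Uap1, an enzyme of UDP-sugar synthesis, and Ly6k, a GPI-anchored protein, were called only with the term, by -0.60 and -0.82 (adjusted p = 0.00398 and 0.0238), against 0.20 and -0.12 without it. For both, smoke replicate 6 was the lowest of the 12 arrays, and without it neither passed with the term. In the fit without the term, leaving out smoke replicate 6 made Uap1 a called rise of 0.66 (limma adjusted p = 0.000246). The Mrpl15 call with the term was lost in 6 of 12 fits with an array left out, as was the Tmie call, and without the term Mrpl15 was not called without smoke replicate 2.

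Shh, the Hedgehog ligand, fell in NZWLacJ lung and rose in C57BL6 lung. It read 8.81, 8.60, 8.80, 8.36 and 9.23 in smoke, against a lowest of 8.88, a median of 9.71 and a highest of 9.91 in air; replicates 1 to 4 were below all air arrays and replicate 6 was not. The difference was -0.73 ± 0.16 (limma adjusted p = 0.00353), and 0.37 in C57BL6 (adjusted p = 0.00206); the effects differed by -1.10 ± 0.18 (limma adjusted p = 9.25e-05). With the term the NZWLacJ value was -0.43 (adjusted p = 0.579) and the test between strains gave an adjusted p of 0.0535. A second probe differed by -0.92. Of 7 measured genes of the Hedgehog pathway Shh was the 1 that passed, against 1.03% of all genes lower. The list median was -0.27 without the term, -0.08 with it, -0.29 within the set and 0.18 outside it.

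Many of the larger rises belonged to genes that differ between the consecutive arrays and the others. Gramd4, Lin7c, Vps4b, Ywhae, Tbc1d8 and Nampt were called, with differences of 1.60, 1.57, 1.53, 1.53, 1.78 and 1.62. The calls of Tbc1d8 and Ywhae were each lost without any 1 of 9 arrays (all but air replicates 3 and 4 and smoke replicate 6), that of Nampt without smoke replicate 1, 2 or 3 or air replicate 6, and those of Lin7c and Vps4b without smoke replicate 2 or 3. Their differences with the term were 0.12, 0.14, 0.10, -0.15, 0.17 and 0.43, none past the threshold. Gramd4 read 8.32, 8.54, 8.55, 8.05 and 5.30 in smoke, against a lowest of 4.79, a median of 5.79 and a highest of 8.38 in air, and the 2 consecutive air arrays, at 7.90 and 8.38, stood with the consecutive smoke arrays. Ywhae, a 14-3-3 signalling adaptor, read 8.43, 8.64, 8.59, 8.85 and 4.85 in smoke and 8.33 and 8.63 on those air arrays, against 4.79 to 6.04 on the other 5 air arrays. Smoke replicate 6 lay with the air arrays from outside the set for each of these genes. For the 4 consecutive smoke arrays, exposure and place in the numbering can be set apart only through the 2 consecutive air arrays.

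**Figure D3:**
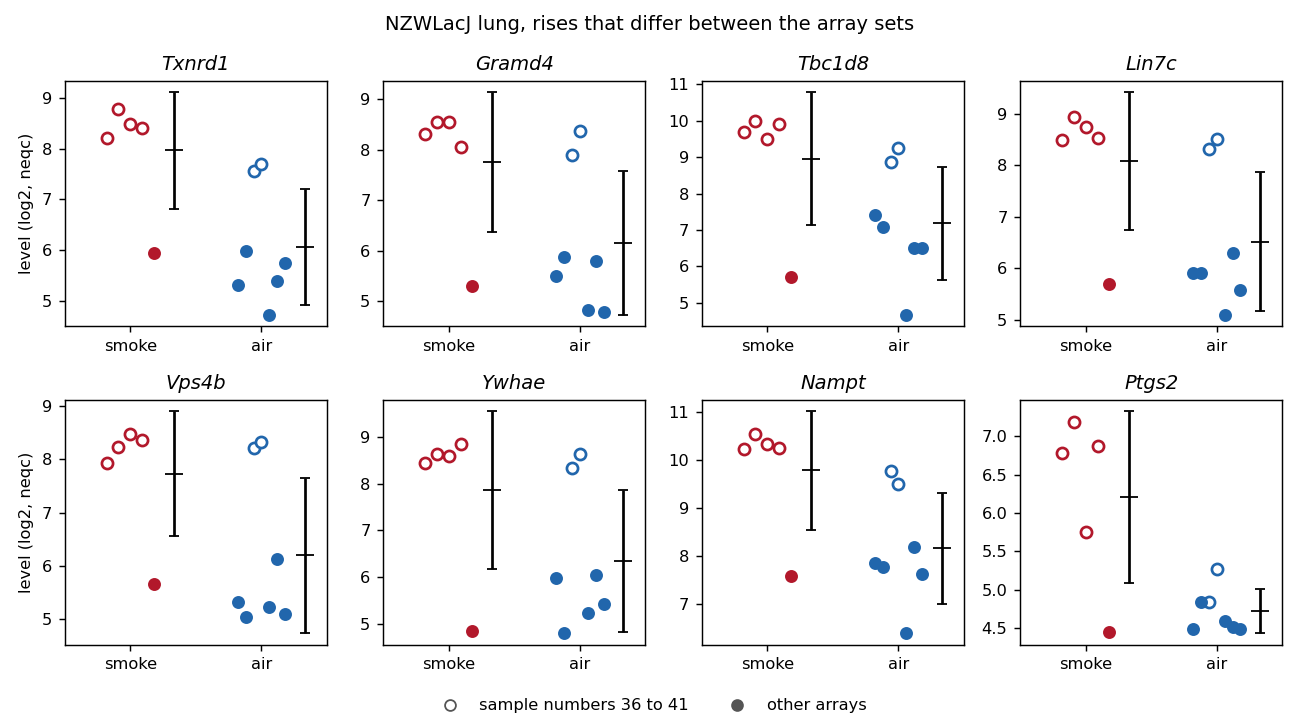
Level (log2 signal) of 8 called genes on each NZWLacJ array, smoke left and air right, with open circles for sample numbers 36 to 41, filled circles for other arrays and the mean with SD (n = 5 smoke, n = 7 air). For Gramd4, Lin7c, Vps4b and Ywhae the 2 open air circles sit with the open smoke circles and the filled smoke circle with the filled air circles; for Ptgs2 the open air circles stay below the open smoke circles.

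Zc3h6, a zinc finger protein, kept more of its difference: 1.36 ± 0.24 without the term (limma adjusted p = 0.000124), all smoke arrays above all air arrays, and 0.93 with it (adjusted p = 0.146). Slc35f5, Sh2d3c, Idi1 and Ifih1 were called without the term and not with it: Slc35f5, a solute carrier, differed by 1.30 and 0.44, Sh2d3c, an adaptor, by 1.17 and 0.36, Idi1, of isoprenoid synthesis, by 1.35 and 0.22, and Ifih1, a sensor of double-stranded RNA, by 0.86 and 0.21. Oasl1, an interferon-induced gene, differed by 0.79 and 0.76 (limma adjusted p = 0.0263 and 0.311); its call was lost without air replicate 1 or 6 or smoke replicate 1 or 3, and that of Ifih1 without smoke replicate 1 or 2. Of 17 measured interferon-responsive genes, Ifih1 and Oasl1 passed and 15 did not, against 1.51% of all genes higher.

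Markers of lung and immune cell types mostly did not pass. Of 13 measured type 2 alveolar genes, the surfactant protein Sftpb and the protease Napsa fell, by 0.92 and 0.55 (limma adjusted p = 0.00298 and 0.0317), and 11 did not pass, against 1.03% of all genes lower. The list median was -0.28. Sftpb and Napsa read highest in air on replicates 1 and 6, the air arrays lowest on the strain scale. Sftpb read 13.61 and 13.29 there, and Napsa 11.50 and 10.62, where the C57BL6 air means were 13.95 and 12.90. With the term both lost their call (-0.30 and -0.25), and Sftpb differed by -0.01 within the set. Without smoke replicate 2 neither was called, and Napsa was lost in 6 of 12 fits with an array left out. Chil3, a chitinase-like protein of activated macrophages, read 5.00, 4.31, 4.36, 7.05 and 5.62 in smoke, against a lowest of 4.44, a median of 7.50 and a highest of 9.05 in air, a spread that overlaps widely. Chil3 was detected on only 1 of 5 smoke and 5 of 7 air arrays, so it sat near background in NZWLacJ lung. Its C57BL6 means were 12.79 in smoke and 12.83 in air, and its highest NZWLacJ air values, 9.05 and 8.89, were on replicates 6 and 1. It differed by -1.63 ± 0.43 (limma adjusted p = 0.021) and by -0.76 with the term (adjusted p = 0.869), and by -0.01 within the set; its call was lost without any 1 of air replicates 1, 2, 6 and 8 and smoke replicates 1, 2 and 3. It was the 1 gene called of 9 measured alveolar macrophage markers, against 1.03% of all genes lower, and their summed signal was 5192 to 11640 in smoke and 5674 to 13240 in air.

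Cd74, the class II invariant chain, fell by 0.62 (limma adjusted p = 0.0288; 0.437 with the term) and was the 1 gene called of 11 class II genes, against 1.03% of all genes lower, with a list median of -0.36; the smoke arrays lay within the air range, and the call was lost in 6 of 12 fits with an array left out. Of 15 fibroblast and mesothelial genes 2 passed, against 1.03% of all genes lower: Flrt2, an adhesion protein, and Fam180a fell by 0.99 and 0.98 (adjusted p = 0.0232 and 0.00806), and differed by -0.70 and -0.88 with the term, not past the threshold; without smoke replicate 1, 2 or 3 neither was called. In limma none passed of 31 chemokines and cytokines (unadjusted p below 0.05 for 2), 11 neutrophil (0), 15 B and plasma cell (4) or 15 T and NK cell genes (2). The same held for 13 club cell (0), 12 ciliated (0), 8 type 1 alveolar (1) and 23 extracellular matrix genes (3) and 19 proteases and inhibitors (0). Their medians lay between -0.38 and 0.09.

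Heart muscle genes, markers of tissue that can be collected with lung, had a list median of 0.44 without the term and 0.71 with it. It was 1.23 within the set and -0.06 outside it, and 10 of 11 genes were positive without the term. Their summed signal was 13980 to 52820 on smoke arrays and 9323 to 34470 on air arrays, and all 11 were detected on at least 1 array. Of the 11, 1 passed, against 1.51% of all genes higher. It was Pln, phospholamban, which restrains the calcium pump of heart and smooth muscle, at 1.39 ± 0.39 (limma adjusted p = 0.0338), with 0.64 with the term and -0.96 outside the set, and lost its call without smoke replicate 1, 2 or 3 or air replicate 1 or 6. The part of carried-along tissue in the other results was not tested.

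**Figure D4:**
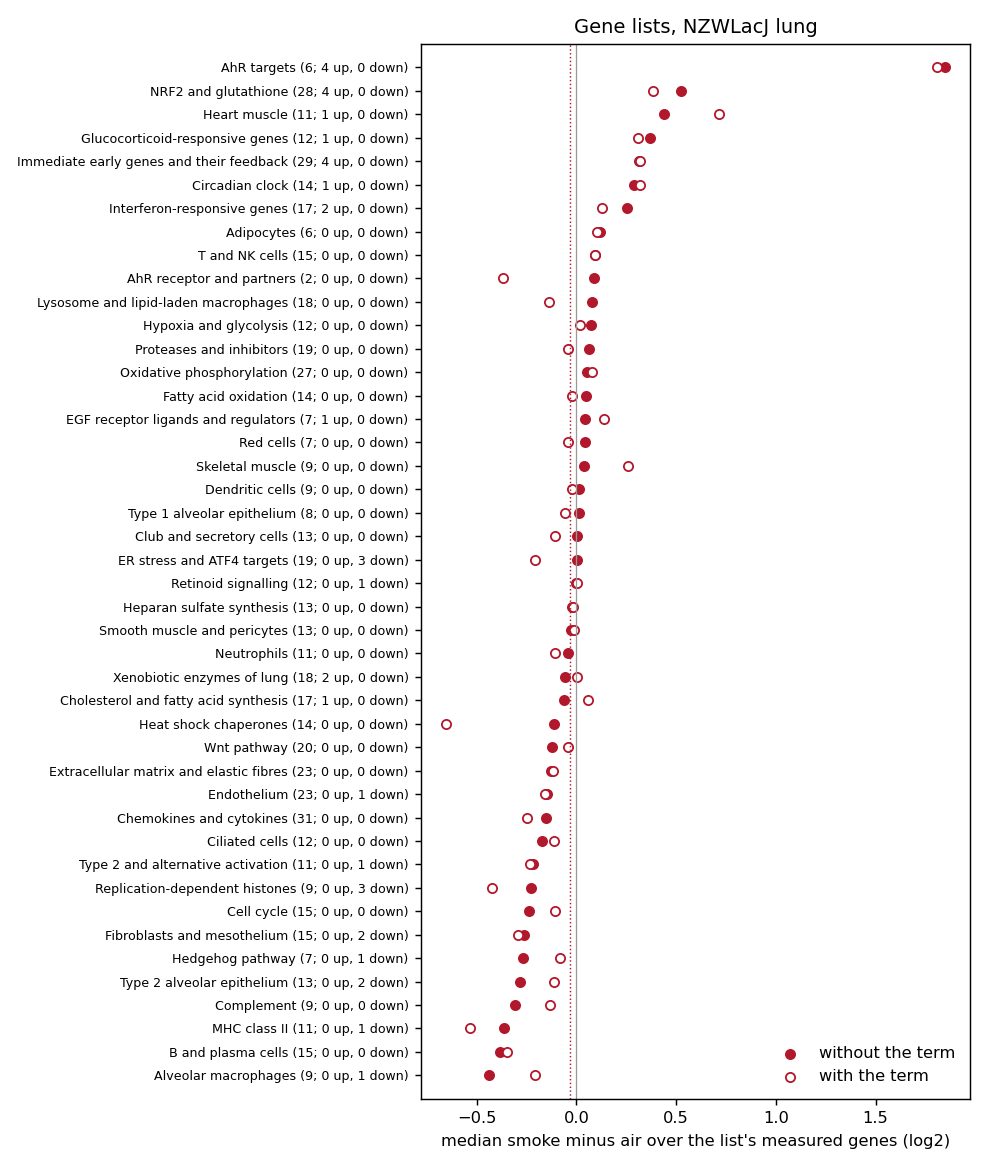
Median smoke minus air (log2) of the measured genes of each of 44 lists in NZWLacJ lung, without the consecutive set as a term (filled) and with it (open); after each name stand the number measured and the numbers called higher and lower without the term, and the dotted line is the median of all genes (-0.03). The AhR targets stand at 1.85 and every other list median without the term lies between -0.44 and 0.53.

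The remaining large falls were Rptn, Numb, Ctsc, Meaf6, Rarg and Cd200. Rptn, an epidermal matrix protein, differed by -1.19 ± 0.30 (limma adjusted p = 0.0133) and also fell in C57BL6, by 0.79 (adjusted p = 0.000185). Numb, an inhibitor of Notch, differed by -1.10, with the same direction in its other 3 probes, and Ctsc, a lysosomal protease that activates granule proteases, by -0.95. Ctsc read highest in air on replicates 6 and 1, at 9.27 and 7.63, the air arrays lowest on the strain scale. Its C57BL6 air mean was 12.38. Within the set Ctsc differed by -0.36, and by -0.90 outside it. The part of the strain scale in this was not tested. Meaf6, of histone acetylation complexes, differed by -0.94, and Rarg, a retinoic acid receptor, by -0.93, while its second probe differed by -0.03. The calls of Numb, Rarg and Cd200 were lost in at least 6 of 12 fits with an array left out, that of Rptn without smoke replicate 4 or air replicate 6 and that of Meaf6 without smoke replicate 2. Cd200, an inhibitory surface ligand, differed by -0.87, while its second probe differed by 0.12. With the term none of the 6 passed (differences of -1.04 for Rptn to -0.01 for Cd200).

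The smoke effects of NZWLacJ and C57BL6 lung were compared by the difference of the 2 effects in the same fit. It passed for 199 genes, 1.75% of those tested, of which 150 were also called for smoke in NZWLacJ; with the term 18 passed (0.159%), 14 of them among the 199. With the term the count was 1 with median scaling, Acr, and 5 with all 14 NZWLacJ arrays. In C57BL6 121 genes were called for smoke (1.07% of those tested), 20 of them in the same direction as a call in NZWLacJ. Among the genes named here, 10 differed between strains both with and without the term: Atf3, Per1, Errfi1, Mpp3, Acr, Cplx1, Insyn2b and Slc22a12 with higher smoke effects in NZWLacJ, and Hhex and Sox7 with lower ones. Without smoke replicate 6, 3 genes differed with the term, Ptgs2, Per1 and Hhex. Mpp3 differed between strains by 1.56 ± 0.30 (limma adjusted p = 0.000992; 0.00271 with the term) and Acr by 1.37 ± 0.28 (adjusted p = 0.00199; 0.00258 with the term). The count of 199 became 82, 41 and 65 without smoke replicates 1, 2 and 3, 66 without air replicate 6, 467 and 500 without air replicates 3 and 4, and 959 without smoke replicate 6; without air replicate 8 it was 0.89% of the genes tested. Whether the C57BL6 arrays were processed together with the NZWLacJ arrays is not given in the labels, so a difference between strains and one between processing runs cannot be told apart here.

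**Figure D5:**
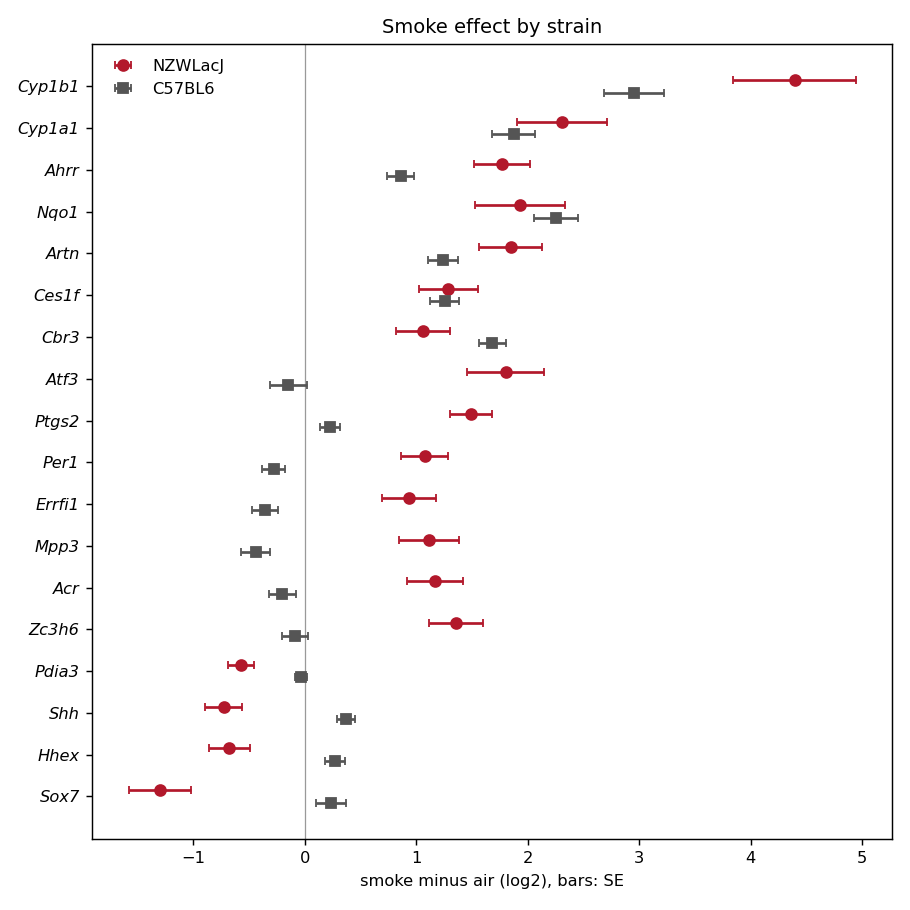
Smoke minus air (log2) of 18 genes in NZWLacJ lung (circles, 5 smoke and 7 air arrays) and C57BL6 lung (squares, 28 smoke and 22 air arrays), with standard errors, without the consecutive set as a term. Cyp1b1, Cyp1a1, Ahrr, Nqo1, Artn, Ces1f and Cbr3 are above 0 in both strains, while Atf3, Per1, Errfi1, Mpp3 and Acr are above 0 in NZWLacJ and at or below 0 in C57BL6.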

How the data were processed

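RNA of lung tissue was measured on Illumina bead arrays, 1 array per sample. The authors deposited a table of non-normalized probe intensity for 109 arrays and 25697 probes, with a detection p-value for each, per the file headers; no source used here names the software that made it. They also deposited normalized values, which are on a log2 scale as read from the values; each of their 109 columns correlated best with its own array in the intensity table (lowest r = 0.968). No source used here states their normalization. The column medians were 7.21 to 7.22, and the sorted values of the columns differed by at most 0.00891 at any rank. The arrays were therefore brought to nearly the same distribution, not only to a common level.

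Intensity was background-corrected with normexp, given an offset of 16, quantile-normalized and put on a log2 scale with neqc in limma 3.58.1 (R 4.3.3). Probes with a detection p-value below 0.01 on at least 6 arrays were kept (15363), and the kept probe with the highest mean stood for each of 11346 genes. The filter counted arrays of every group, smoke included. Genes not detected on any NZWLacJ air array could hardly come out lower in smoke. Among the named genes these were Cyp1a1, Ahrr, Ces1g, Ptgs2 and Slc22a12. Symbols came from RefSeq (GRCm38.p6) through the platform's gene IDs for 23962 probes, and 1719 had no match. Group means of 8 groups were fitted over 107 arrays (99 residual degrees of freedom) with lmFit and eBayes, and p-values were adjusted over all 11346 genes (Benjamini-Hochberg, threshold 0.05). The 107 arrays share 1 estimate of the spread per gene. The standard errors and p-values can therefore be too small for genes that vary more among the NZWLacJ arrays. Gramd4, for example, had SDs of 1.39 in smoke and 1.43 in air beside a standard error of 0.34 for the difference. A second fit added a term for NZWLacJ arrays with sample numbers 36 to 41. Groups follow the strain, genotype and treatment labels. The sample titles name C57 for all 14 arrays labelled NZWLacJ, and the strain label was used. Replicate numbers were given in accession order. A fit of the same form was tried on simulated log2 values with these group sizes, and recovery was checked for the fit with the term only. Normalization, filter and choice of probe were not part of that trial.

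The genes and 44 gene lists were chosen with earlier results of these data known. Named were Cyp1b1, Ahrr and Atf3, the 15 largest rises and 15 largest falls, the 8 smallest adjusted p in each direction with the term, up to 4 called members of each list, and the 8 smallest adjusted p of the difference between strains. For a list with no call up to 2 members could be named. Clone, predicted and locus names, 27 of the 288 calls, were counted and not named. Cirbp, Aldh3a1, Ugt1a6a, Hmox1, Gclc, Fos, Dusp1, Dbp and Tsc22d3 fall outside this and were chosen after their values were seen. Alternatives tried were the arrays used, the samples in the fit, each array left out, median scaling, the deposited normalized values, no background correction, other filters and array weights. The number of arrays limits the precision.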

Additional observations from a re-analysis of the deposited data

Results flagged for a closer look

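In 62 named genes, 124 groups of values (5 smoke or 7 air arrays) were checked for a sample far from the others, and 19 held one; chance alone marks about 1 group in 20. In 13 of them the array was smoke replicate 6, lower than the other 4 smoke arrays: Ces1g (5.27), Gramd4 (5.30), Idi1 (4.91), Ifih1 (4.58), Lin7c (5.70), Nampt (7.57), Sh2d3c (5.30), Slc35f5 (4.50), Tbc1d8 (5.72), Txnrd1 (5.95), Uap1 (5.65), Vps4b (5.65) and Ywhae (4.85) on the log2 scale. Smoke replicate 6 is the 1 smoke array outside the consecutive set, and it was high for H2bc6 (8.09). Air replicate 1 was low for Artn (6.15) and high for H3c4 (7.49), air replicate 4 was low for Cbr1 (9.24) and Nqo1 (5.03), and air replicate 6 was high for Ctsc (9.27).

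The smoke effect differed between NZWLacJ and C57BL6 lung, by the limma test of the difference, for 34 named genes. It was higher in NZWLacJ, with the difference of the 2 log2 effects in brackets, for Acr (1.37), Atf3 (1.95), Ces1g (0.95), Cirbp (1.19), Cplx1 (0.54), Errfi1 (1.30), Gramd4 (1.62), Idi1 (1.41), Ifih1 (0.90), Insyn2b (0.62), Lin7c (1.61), Mpp3 (1.56), Nampt (1.60), Oasl1 (0.95), Per1 (1.35), Ptgs2 (1.27), Sh2d3c (1.23), Slc22a12 (0.61), Slc35f5 (1.29), Txnrd1 (1.34), Vps4b (1.44) and Zc3h6 (1.45). It was lower in NZWLacJ for Cd200 (-1.19), Creld2 (-0.68), Ctsc (-0.85), Fam180a (-0.96), H2bc7 (-0.84), Hhex (-0.95), Meaf6 (-1.06), Pdia3 (-0.54), Sftpb (-0.91), Shh (-1.10), Sox7 (-1.54) and Stip1 (-1.002). With the consecutive set as a term 10 of the named genes still differed, as given with the strain comparison.

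The left-out array labelled as NZWLacJ air replicate 5, whose strain-specific probes read as C57BL6, had high exposure genes. Cyp1b1 read 9.36 and Nqo1 7.64 on it, against highest values of 7.75 and 6.88 on the 22 C57BL6 air arrays. The left-out smoke replicate 5 read 7.38 for Cyp1b1 and 7.11 for Nqo1. Neither array's identity was tested beyond the strain-specific probes.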

How the results depend on the processing

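No paired analysis was possible because replicate numbers were given in accession order and pair no samples. The count of 288 NZWLacJ genes became 112 with all 14 arrays, 5 on the 12 NZWLacJ arrays alone, 10 within and 10 outside the consecutive set, 59 with median scaling, 475 on the deposited normalized values, 1753 with array weights (whose estimate stopped before full convergence) and 36 with the term; leaving out 1 array gave 67 to 1221. The count of 199 differences between strains became 47, 3 within and 9 outside the set, 28 with median scaling, 345 on deposited values, 1376 with weights and 18 with the term, and 41 to 959 leaving out 1 array. The 36 with the term became 11 with all 14 arrays, 4 on 12 arrays alone, 5 with median scaling, 65 on deposited values and 89 without a filter, and 9 to 86 leaving out 1 array. The 121 C57BL6 calls became 70 with median scaling and 187 with weights. The cause was not tested. No background correction, the NZWLacJ filter and, for the 288 and the 199, no filter kept these counts within 1.5 times.

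Of 60 called named genes, those still called in the same direction were 38 with all 14 arrays, 26 with median scaling, 54 on deposited values, 21 with the term, 56 without background correction and 32 to 60 leaving out 1 array. Outside the set differences turned to 0.22 (Cd200), -0.058 (Gramd4), 0.087 (H2bc6), -0.16 (Idi1), -0.16 (Ifih1), -0.055 (Lin7c), -0.96 (Pln), -0.14 (Ptgs2), 0.38 (Rarg), -0.14 (Slc35f5), -0.71 (Tbc1d8), -1.30 (Uap1) and -0.64 (Ywhae). Within it Uap1 was -0.16 and Vps4b -0.017, and with the term Uap1 was -0.60 and Ywhae -0.15. Ly6k was 0.27 with array weights, and leaving out 1 array moved it between -0.36 and 0.22. Dim probes such as Cyp1a1 and Ahrr in air have only a bound there.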
